A study of Homo sapiens with 15 samples.

Results

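Chromatin accessibility was examined at 8 loci that encode transcription factors of kidney epithelial identity. These were PAX2, PAX8, LHX1, EMX2, HNF4A, HNF4G, GATA3 and TFAP2B, 8 of the 20033 protein-coding genes on chromosomes 1 to 22, X and Y. A locus was the gene in GENCODE version 44 with 20 kb added on each side, and it was described by the called ATAC-seq peaks inside it. ATAC-seq marks DNA that the Tn5 transposase can reach. The cells were RPTEC, a human renal proximal tubule epithelial line immortalised with hTERT and kept under G418, and each library was made from bulk cells with a Nextera kit. There were 15 libraries in 5 groups of 3. WT was the unedited line. KO1 and KO2 were single clones in which CRISPR had been aimed at exon 3 of SETD2, the gene of a histone H3 lysine methyltransferase. Rescue1 and Rescue2 were single clones of knockout cells that carried a lentiviral full-length SETD2 with a FLAG tag and had been selected with blasticidin. The peak names of both rescue clones carry the code of the KO2 line. The labels number the libraries without saying whether they came from separate cultures, so p-values measure the spread between libraries of these lines, and each clone is one line.

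In the embryo, PAX2 and PAX8 specify the nephric lineage together, LHX1 acts with them in the nephric duct and the forming nephron, and EMX2 is needed for the urogenital system to develop. HNF4A is the nuclear receptor that drives the proximal tubule programme, and HNF4G is its close paralogue. GATA3 is a zinc finger factor of the nephric duct and the collecting duct, and TFAP2B is an AP-2 factor of the distal convoluted tubule. Genes of this kind often sit in clusters of accessible elements, with CpG-rich promoters and distal enhancers in introns and flanks.

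The peak lists held 197527 to 266011 peaks, and 49.4 to 65.2 Mb lay under them. They hold no read counts, so read depth is not known from them, and a region without a peak was below the calling threshold rather than closed. The window of SETD2 itself had 4145 to 4807 bases under peaks in WT, 4546 to 5668 in KO and 4929 to 6602 in rescue libraries, with no call in KO against WT (adjusted p = 0.105) or rescue against KO (adjusted p = 0.132). Such peaks do not show whether the coding sequence was edited. Of 5 epithelial markers, KRT8, KRT18, KRT19 and EPCAM had a peak over a start site in all 15 libraries, while CDH1 had one in 2 WT libraries and in no other. Of 8 proximal tubule markers, ANPEP, GGT1, SLC34A1, CDH6 and HAVCR1 had such a peak in all 15 and AQP1 in 12, but CUBN and LRP2, the endocytic receptors of this segment, had it in none. Among markers of other kidney cell types, SLC12A1 had one in 15 libraries, NPHS1 in 2 and UMOD and AQP2 in none. Of 7 markers of other lineages, CDH5 had one in all 6 rescue libraries and in no other and ALB in 1 library, and the other 5, among them the endothelial marker PECAM1, had none. Whether the CDH5 peak, which moved with the rescue groups, bears on any result at the 8 loci was not tested.

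Merged peaks held by at least 2 libraries gave 295008 consensus regions, of which 150 lay in the 8 windows. Of these, 42 were within 1 kb of an annotated start site, 18 were in exons, 54 in introns and 36 between genes. The share near start sites was 28%, against 17.8% of all consensus regions. A peak was present in all 15 libraries in 51 of the 150 regions (34.0%), close to the 35.6% of all regions. The loci differed widely in how much of them was accessible. Per kb of window, PAX8 had 86.7 ± 4.54 bases under peaks (SD over 15 libraries), LHX1 79.6 ± 5.62, TFAP2B 44.9 ± 16.1, EMX2 43.5 ± 7.52, PAX2 36.6 ± 3.03, HNF4A 14.5 ± 1.63, HNF4G 12.2 ± 1.78 and GATA3 12 ± 6.06. The median over the 18744 windows tested was 34.6. Between neighbours in this order the ranges over libraries were separate only for LHX1 (lowest 72.6) above TFAP2B (highest 64.1) and for PAX2 (lowest 30.7) above HNF4A (highest 18.0). PAX8 stood at the 96.2 percentile of the tested windows and GATA3 at the 8.75 percentile. The spread over libraries relative to the level was widest for GATA3 and TFAP2B.

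**Figure D1:**
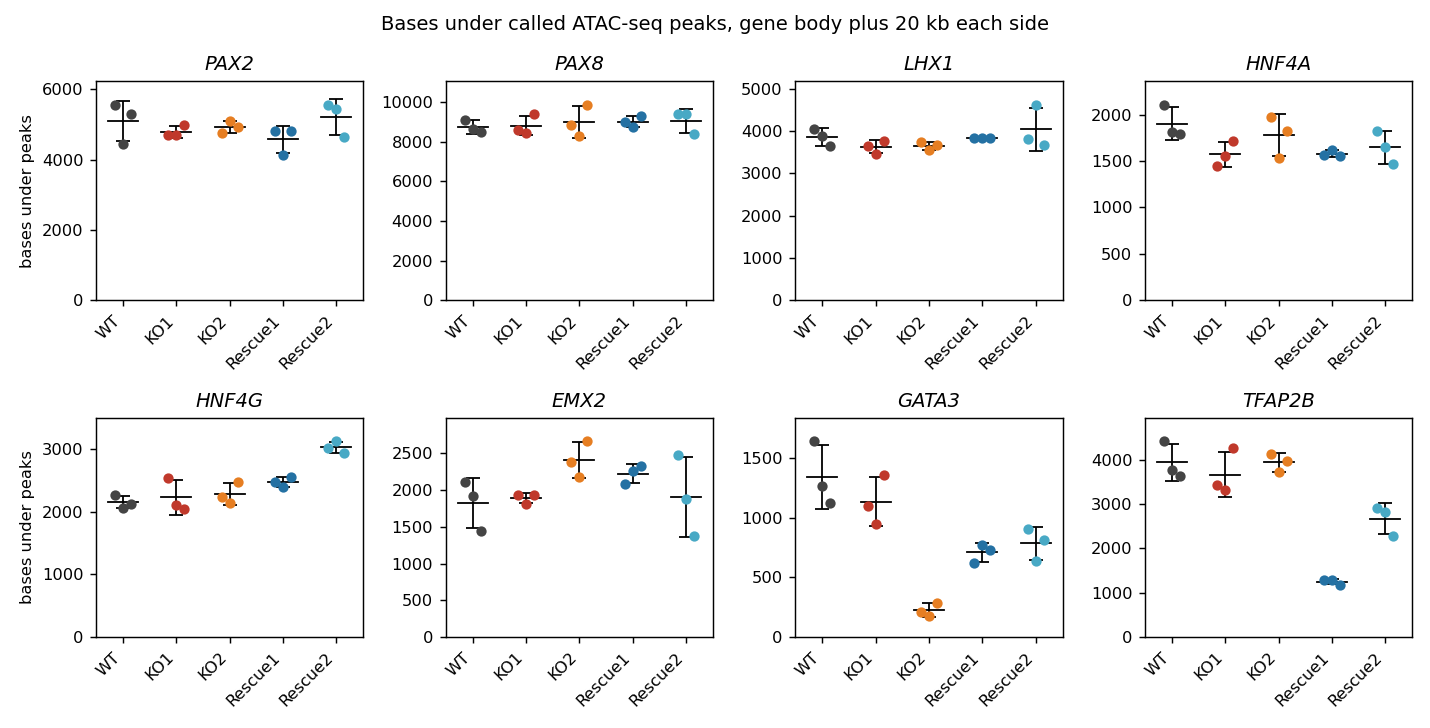
Bases under called peaks in the window of each gene (y axis, from 0) for the 3 libraries of WT, KO1, KO2, Rescue1 and Rescue2 (x axis); points are libraries, the short line is the group mean and the bar is ± SD. GATA3 is lowest in KO2 (176 to 287 bases) and TFAP2B is lowest in Rescue1 (1176 to 1292 bases), while the PAX8 groups overlap throughout.

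KO was compared with WT for the loss of SETD2, and rescue with KO for its return. WT is the unedited line, while each KO and rescue line is a single clone, and the rescue clones also went through lentivirus and blasticidin. SETD2 status therefore cannot be told apart from clone or selection in these comparisons. Windows were compared by limma on log2(bases under peaks + 300), with KO the mean of KO1 and KO2 and rescue the mean of Rescue1 and Rescue2. A window was called at an adjusted p under 0.05 over all 18744 windows. Because of the added 300 bases, a log2 difference is smaller than that of the bases themselves. In bulk libraries, a window open in fewer cells and one less open in every cell cannot be told apart.

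At the 8 loci, 1 window was called in KO against WT, GATA3, which was lower. Across all windows 29.4% were called, 2929 higher and 2585 lower. In rescue against KO, 3 of the 8 were called: HNF4G and GATA3 were higher and TFAP2B was lower, against 38.2% of all windows (5895 higher, 1259 lower). In rescue against WT, 3 of the 8 were called, with HNF4G higher and GATA3 and TFAP2B lower, against 28.2% of all windows (4552 higher, 740 lower). The median log2 difference of the 8 loci was -0.05 in KO against WT, 0.01 in rescue against KO and -0.02 in rescue against WT, beside -0.01, 0.10 and 0.09 over all windows. With only 8 loci, these counts were not far from the shares called elsewhere, and the loci are described one by one for which of them moved and in which clone. The direction over all windows depended on scaling. With bases expressed per Mb under peaks in the library, 2692 windows were higher and 8361 lower in KO against WT (median log2 difference -0.11), 5944 and 2676 in rescue against KO, and 2851 and 5611 in rescue against WT. With lists cut to the 150000 strongest peaks, KO against WT had 2312 higher and 3810 lower and rescue against WT 3045 and 1372. On the per Mb scale 6 of the 8 loci were called lower in KO against WT, GATA3 with PAX2, PAX8, LHX1, HNF4A and TFAP2B.

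PAX8 (chromosome 2, 113215997 to 113278921, minus strand), the paired-box factor that marks renal epithelium, lay in a window of 37 regions that also reached into PSD4 and PAX8-AS1. It had 9108, 8627 and 8474 bases under peaks in WT, 8597, 8446 and 9369 in KO1, 8844, 8294 and 9870 in KO2, 9014, 8739 and 9283 in Rescue1 and 9369, 9383 and 8363 in Rescue2. All groups overlapped. The log2 difference was 0.02 (95% interval -0.12 to 0.17) in KO against WT and 0.02 (-0.10 to 0.14) in rescue against KO, so any change of the summed length was small. Per Mb under peaks the sign in KO against WT was reversed, to -0.09 (adjusted p = 0.0452). The region over the main start site (chr2:113278803-113279168) had a peak in all 15 libraries, as did 18 of the 37 regions.

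PAX2 (chromosome 10, 100735396 to 100829944, plus strand), the other paired-box factor, had 28 regions, 9 of them with a peak in every library. The WT libraries had 5565, 4456 and 5282 bases under peaks, KO1 had 4689, 4702 and 4981, KO2 had 4757, 5111 and 4917, Rescue1 had 4800, 4132 and 4803, and Rescue2 had 5543, 5450 and 4632. The 3 WT values spanned nearly all of the others. The log2 difference was -0.06 (-0.22 to 0.09) in KO against WT and 0.00 (-0.12 to 0.13) in rescue against KO. The start-site region (chr10:100744990-100745895) had a peak in all 15 libraries.

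LHX1 (chromosome 17, 36936785 to 36944612, plus strand), the LIM-homeobox factor, is a short gene whose window also holds LHX1-DT and the AATF promoter. Its 13 regions included 7 with a peak in every library, and 8 of the 13 were at start sites. None of them lay over the main start site. There were 4049, 3889 and 3646 bases under peaks in WT, 3658, 3470 and 3771 in KO1, 3744, 3553 and 3678 in KO2, 3843, 3833 and 3847 in Rescue1 and 3823, 4631 and 3677 in Rescue2. The difference was -0.08 (-0.22 to 0.07) in KO against WT and 0.10 (-0.02 to 0.22) in rescue against KO. With the gene body alone, KO was called above WT (0.29, adjusted p = 0.047) and rescue above WT (0.45, adjusted p = 0.0039), and per Mb under peaks KO was called below WT (-0.18, adjusted p = 0.00603) and rescue below WT (-0.13, adjusted p = 0.0488). An exact permutation test over libraries put rescue above KO (p = 0.013, adjusted p = 0.0465), a call that limma did not make (adjusted p = 0.172). A region 216 bp before the main start site (chr17:36937137-36937381), named after its values were seen, had a peak in no WT or KO1 library, in 2 of 3 KO2 libraries and in all 6 rescue libraries.

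EMX2 (chromosome 10, 117542445 to 117549546, plus strand), a homeobox factor, had 17 regions with the overlapping antisense gene EMX2OS, and 3 of them had a peak in every library. Among these was the region over the main start site (chr10:117542425-117542768). A peak reached an annotated EMX2 start site itself in 2 WT, no KO1, 3 KO2, 3 Rescue1 and 3 Rescue2 libraries. Bases under peaks were 2110, 1924 and 1442 in WT, 1931, 1813 and 1935 in KO1, 2383, 2173 and 2664 in KO2, 2076, 2257 and 2331 in Rescue1 and 2470, 1874 and 1379 in Rescue2. KO2 lay above all WT libraries, and KO1 lay within them. The difference was 0.21 (-0.02 to 0.44) in KO against WT, with KO2 alone called higher (0.36, adjusted p = 0.0437) and KO1 not (0.06, adjusted p = 0.798). The clones did not pass the test against each other (adjusted p = 0.313). With 50 kb flanks EMX2 was called in KO against WT (0.36, adjusted p = 0.00161).

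HNF4A (chromosome 20, 44355699 to 44432845, plus strand), the proximal tubule nuclear receptor, had no peak over any annotated start site in any of the 15 libraries. Its 14 regions lay in introns, in an exon, at start sites of the noncoding genes HNF4A-AS1 and MIR3646, and in the flanks, where R3HDML and LINC01620 lie. The lengths were 2108, 1812 and 1787 bases in WT, 1448, 1554 and 1712 in KO1, 1977, 1535 and 1826 in KO2, 1567, 1622 and 1550 in Rescue1 and 1825, 1652 and 1471 in Rescue2. KO1 and Rescue1 lay below all WT libraries, and KO2 and Rescue2 overlapped them. No comparison passed the test, at -0.16 (-0.34 to 0.02) in KO against WT, -0.04 (-0.19 to 0.11) in rescue against KO and -0.20 (-0.38 to -0.02; adjusted p = 0.0897) in rescue against WT. The last passed with the 150000 strongest peaks per library (-0.35, adjusted p = 0.00418), with peaks of a -log10 q of at least 5 (-0.31, adjusted p = 0.0321) and per Mb under peaks (-0.35, adjusted p = 0.000125). KO against WT passed per Mb under peaks (-0.26, adjusted p = 0.00188), and with the gene body alone rescue against KO turned to 0.23 (adjusted p = 0.0416).

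HNF4G (chromosome 8, 75407914 to 75566834, plus strand), the paralogue of HNF4A, had 12 regions in a window of 199 kb, and its first promoter (chr8:75406845-75408211) had a peak in all 15 libraries. The main annotated start site lies 132341 bp downstream of that region and had no region over it. There were 2263, 2063 and 2129 bases under peaks in WT, 2539, 2103 and 2037 in KO1, 2233, 2133 and 2476 in KO2, 2469, 2392 and 2547 in Rescue1 and 3007, 3122 and 2942 in Rescue2. Rescue2 lay above every other library. The log2 difference was 0.06 (-0.10 to 0.21) in KO against WT, 0.25 ± 0.06 (SE) in rescue against KO (adjusted p = 0.0021) and 0.31 ± 0.08 in rescue against WT (adjusted p = 0.00311). Against KO2, Rescue2 was called higher (0.37, adjusted p = 0.00311) and Rescue1 was not (0.10, adjusted p = 0.488). The rescue against KO call was lost with lists of equal size (0.11, adjusted p = 0.281), with the stricter threshold (0.15, adjusted p = 0.0712), with the gene body alone (0.12, adjusted p = 0.169) and by the exact permutation test (adjusted p = 0.0518). The rescue against WT call was lost with lists of equal size (adjusted p = 0.0598), per Mb under peaks (adjusted p = 0.0504) and by permutation (adjusted p = 0.114). In that comparison the permutation test called 0 of all windows. There were 3 regions around the first promoter, named after their values were seen, that carried added length in rescue. The first (chr8:75399266-75399726) had a peak in all 6 rescue libraries, 1 WT library and 1 KO1 library, the next (chr8:75406620-75406838) in 2 Rescue1 and 3 Rescue2 libraries and no other, and the last (chr8:75408269-75408494) in the 3 Rescue2 libraries alone.

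GATA3 (chromosome 10, 8045378 to 8075198, plus strand), the nephric duct and collecting duct factor, had the fewest regions, 6. It had 1643, 1269 and 1125 bases under peaks in WT, 1096, 951 and 1361 in KO1, 214, 176 and 287 in KO2, 623, 776 and 732 in Rescue1 and 907, 637 and 817 in Rescue2. KO1 overlapped WT, KO2 lay below every other library, and both rescue clones lay between KO2 and WT without overlapping either. The fall in KO against WT was -0.92 ± 0.12 (SE) on the log2 scale (adjusted p = 8.59e-07). It came from KO2 (-1.64, adjusted p = 3.29e-10), as KO1 was not called (-0.19, adjusted p = 0.354). KO1 exceeded KO2 by 1.45 (adjusted p = 1.93e-08), 1 of the 8 loci called between the knockout clones, against 3.0% of all windows. With both clones pooled, the exact permutation test gave p = 0.0833 (adjusted p = 0.202), and in KO against WT it called 0 of all windows. Both rescue clones exceeded KO2, Rescue1 by 0.95 (adjusted p = 1.24e-05) and Rescue2 by 1.05 (adjusted p = 2.71e-06). Against the mean of both knockout clones the rise was only 0.27 ± 0.10 (adjusted p = 0.0321). This call was lost with lists of equal size (adjusted p = 0.368), with the gene body alone (0.257), with the stricter threshold (0.0565), without the filter on low windows (0.0517), by permutation (0.553) and when any 1 of 7 libraries was left out (0.0563 to 0.101). The 7 were KO1 replicates 1 and 2, KO2 replicates 1 and 2, Rescue1 replicates 2 and 3 and Rescue2 replicate 1. The rescue clones still lay below WT, by -0.64 ± 0.12 (adjusted p = 0.0002).

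**Figure D2:**
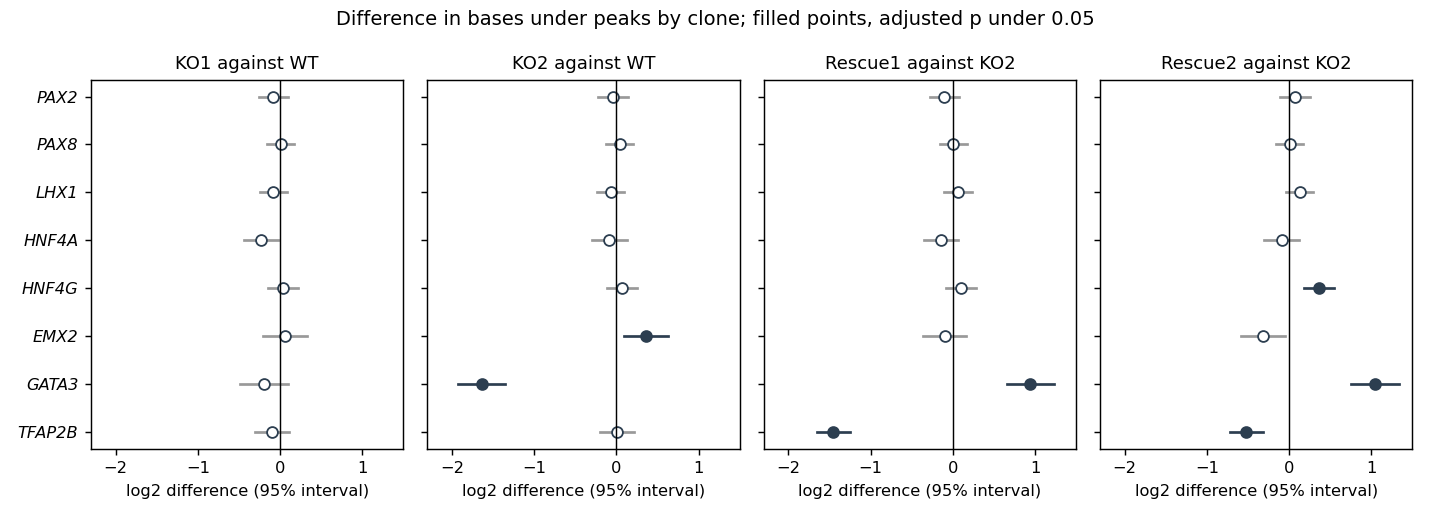
Log2 difference in bases under peaks plus 300 (x axis, with 95% interval) for each of the 8 genes (y axis) in each knockout clone against WT and each rescue clone against KO2; filled points passed an adjusted p of 0.05 in limma. GATA3 is at -1.64 in KO2 and near 0.95 and 1.05 in the rescue clones against KO2, and TFAP2B is at -1.45 in Rescue1 and -0.52 in Rescue2; per Mb under peaks the sign of PAX8 turns in KO against WT.

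The 3 GATA3 promoter regions behaved differently from one another. The region 1018 bp before the main start site (chr10:8053365-8053974), shared with GATA3-AS1, had a peak in all 15 libraries, but that peak covered 386 to 569 bases in WT, 413 to 504 in KO1, 176 to 214 in KO2, 397 to 464 in Rescue1 and 429 to 478 in Rescue2. The region over the main start site (chr10:8054309-8054871) had a peak in all 3 WT, KO1 and Rescue1 libraries but in 1 KO2 and 1 Rescue2 library. The region at the upstream start site (chr10:8045030-8045539) had a peak in 3 WT, 2 KO1, no KO2, no Rescue1 and 3 Rescue2 libraries. A region 14904 bp upstream of the main start site (chr10:8039705-8039864) had a peak in the 3 WT libraries and in none of the other 12. The GATA3 totals of Rescue1 and Rescue2 differed by -0.10 (95% interval -0.39 to 0.19). Both included the region found in all libraries, while the upstream start site added to Rescue2 and the main start site mostly to Rescue1. The 200 bases around the summits of the WT-only region, the upstream promoter and the region 1018 bp before the main start site are shown. The last is labelled main promoter, though it does not cover that start site. The region over the main start site is not printed. It had 402, 538 and 483 bases under peaks in KO1 and 0, 0 and 111 in KO2. The sequences were read from hg38 on the plus strand. Capitals mark matches to the motifs listed further on, a TEAD match in the upstream promoter and a TFAP2 match in the region labelled main promoter.
GATA3 WT-only region (chr10:8039656-8039855): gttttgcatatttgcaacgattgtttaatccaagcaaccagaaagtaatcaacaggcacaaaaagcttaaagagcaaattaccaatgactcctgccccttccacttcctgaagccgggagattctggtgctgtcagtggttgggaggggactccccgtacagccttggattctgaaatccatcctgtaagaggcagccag
GATA3 upstream promoter (chr10:8045186-8045385): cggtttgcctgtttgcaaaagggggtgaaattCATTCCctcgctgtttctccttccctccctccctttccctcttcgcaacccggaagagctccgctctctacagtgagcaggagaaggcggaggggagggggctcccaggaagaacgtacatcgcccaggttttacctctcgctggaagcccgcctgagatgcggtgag
GATA3 main promoter (chr10:8053431-8053630): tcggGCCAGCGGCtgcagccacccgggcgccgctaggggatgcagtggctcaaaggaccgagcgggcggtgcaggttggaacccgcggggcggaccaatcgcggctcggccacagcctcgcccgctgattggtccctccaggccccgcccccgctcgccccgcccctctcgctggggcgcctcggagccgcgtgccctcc

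TFAP2B (chromosome 6, 50818723 to 50847619, plus strand), the AP-2 factor of the distal tubule, had 23 regions. It had 4415, 3776 and 3630 bases under peaks in WT, 3422, 3314 and 4258 in KO1, 4135, 3715 and 3980 in KO2, 1278, 1292 and 1176 in Rescue1 and 2913, 2822 and 2273 in Rescue2. WT and both knockout clones overlapped, all rescue libraries lay below them, and Rescue1 lay below Rescue2. KO against WT differed by -0.05 (95% interval -0.22 to 0.13). Rescue against KO differed by -0.93 ± 0.07 (SE; adjusted p = 1.44e-11) and rescue against WT by -0.98 ± 0.09 (adjusted p = 5.41e-10). Against KO2, Rescue1 was lower by -1.45 (adjusted p = 6.89e-12) and Rescue2 by -0.52 (adjusted p = 0.000302). Rescue1 was lower than Rescue2 by -0.93 (adjusted p = 2.52e-07), 1 of the 8 loci called between rescue clones, against 4.18% of all windows. The exact permutation test called rescue against KO (p = 0.00216, adjusted p = 0.0155) and not rescue against WT (p = 0.0238, adjusted p = 0.114).

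In the TFAP2B window the loss was spread over the gene body and the flanks and was not seen at every element. Rescue1 libraries held a peak in 4 to 6 of the 23 regions and Rescue2 libraries in 9 to 14, while WT libraries held 15 to 18 and KO libraries 13 to 17. The intronic region 18896 bp into the gene (chr6:50837567-50837967) had a peak in 2 of 3 WT, all 6 KO and no rescue library, and it was the 1 region of the 8 windows called lost in rescue against KO. A pair of exonic regions near the 3′ end (chr6:50842765-50843347 and chr6:50843836-50844162) and a region at an internal start site (chr6:50822194-50822417) had a peak in all Rescue2 and no Rescue1 library. The small region over the main start site (chr6:50818835-50818973) had a peak in 2 WT, 1 KO1, 3 KO2, no Rescue1 and 1 Rescue2 library. The promoter region 973 bp into the gene (chr6:50819635-50820053) kept a peak in all 15 libraries, with 280 to 308 bases in Rescue1, 337 to 373 in WT and 122 to 330 in KO. A region downstream of the gene (chr6:50850214-50850800) also had a peak in all 15, with 511 to 538 bases in Rescue1 beside 508 to 582 in WT. Its neighbour (chr6:50850865-50851637) had a peak in all 15 too, but with 175 to 260 bases in Rescue1 beside 563 to 705 in WT. A region further downstream (chr6:50854046-50854319) had a peak in 3 WT, 2 KO1, 3 KO2, no Rescue1 and 2 Rescue2 libraries. The intronic region and the retained promoter region are shown as the lost and the kept end of this pattern. Capitals mark a homeobox and a GATA match, in that order, and the promoter window held no motif searched.
TFAP2B intronic region (chr6:50837680-50837879): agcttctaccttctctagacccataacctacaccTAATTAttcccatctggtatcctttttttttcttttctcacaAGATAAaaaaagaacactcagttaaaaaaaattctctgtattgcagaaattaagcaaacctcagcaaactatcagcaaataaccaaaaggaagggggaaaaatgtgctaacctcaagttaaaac
TFAP2B promoter region (chr6:50819690-50819889): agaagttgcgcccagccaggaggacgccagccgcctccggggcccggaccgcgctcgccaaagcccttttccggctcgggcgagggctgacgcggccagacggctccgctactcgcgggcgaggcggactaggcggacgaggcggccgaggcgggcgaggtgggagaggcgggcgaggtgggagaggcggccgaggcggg

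Clone by clone, no member window was called in KO1 against WT (25.4% of all windows) and 2 were called in KO2 against WT (23.8%), EMX2 and GATA3. In Rescue1 against KO2, 2 were called (15.5%), GATA3 and TFAP2B, and in Rescue2 against KO2, 3 were called (25.0%), HNF4G, GATA3 and TFAP2B. Between clones of one kind, the 8 loci gave GATA3 for the knockout clones and TFAP2B for the rescue clones.

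**Figure D3:**
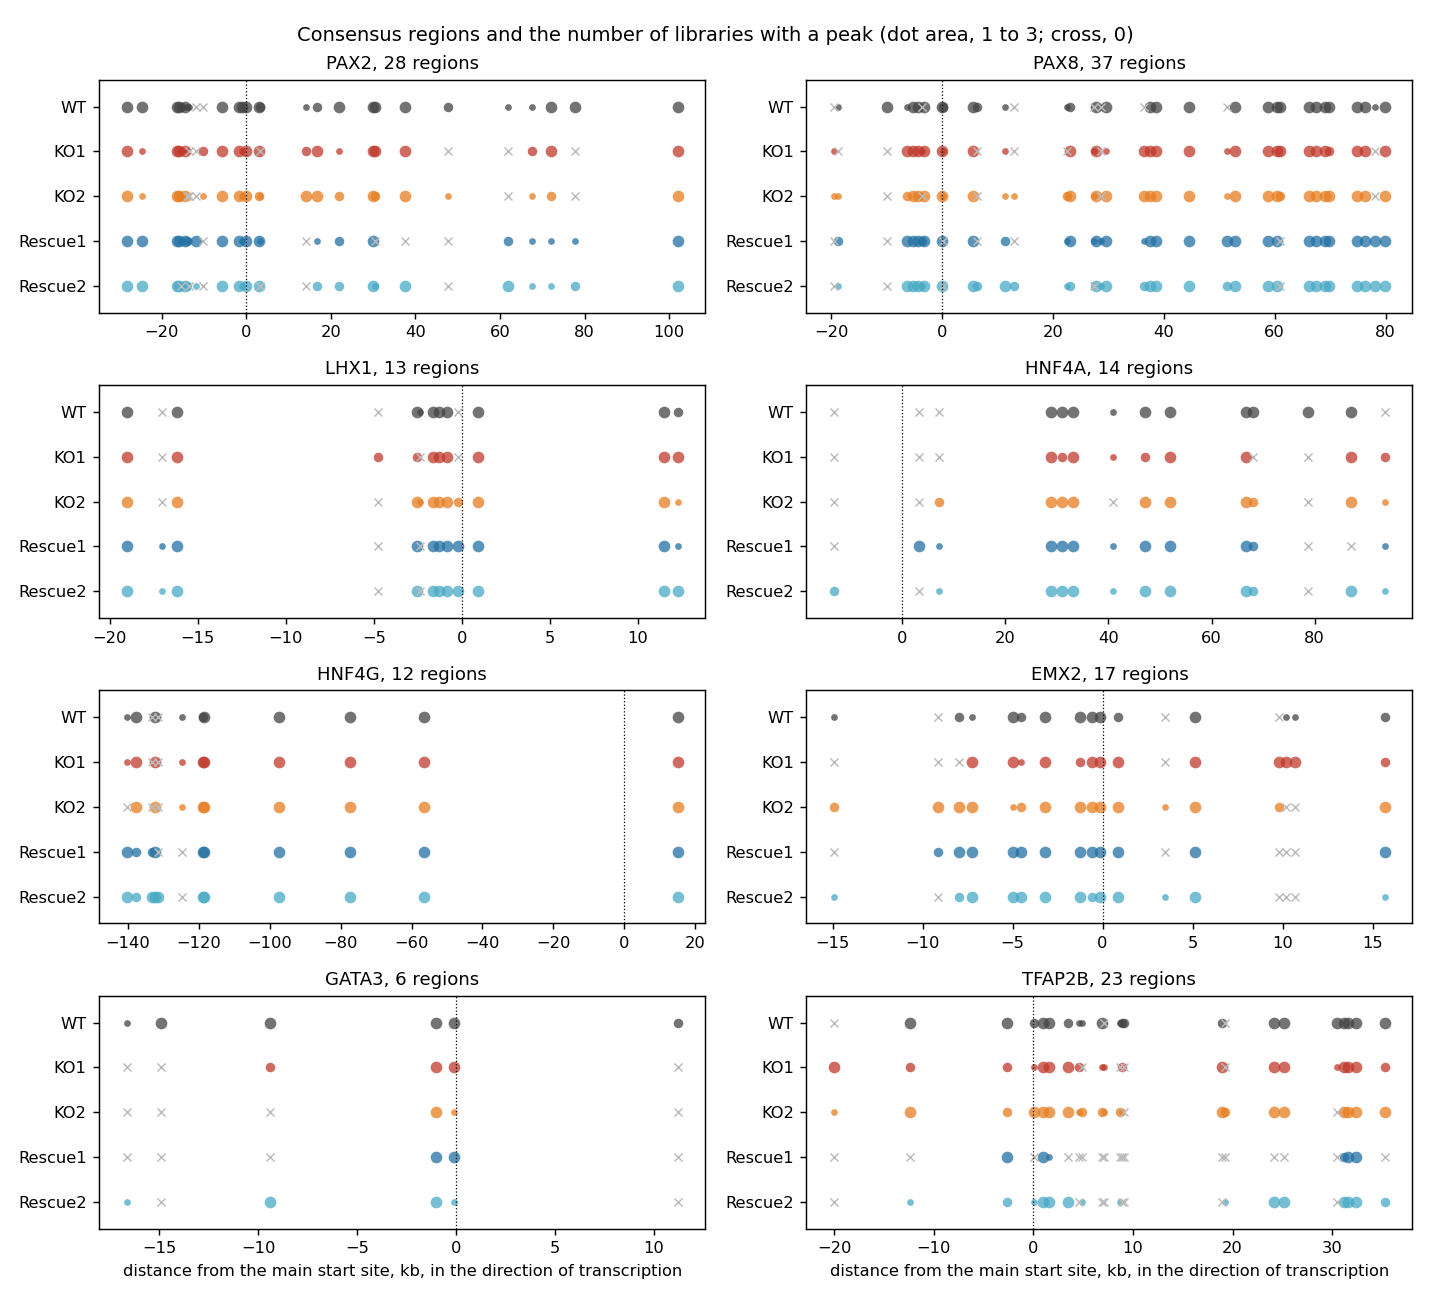
The 150 consensus regions placed by distance from the main start site in kb (x axis, in the direction of transcription) for each group (y axis); the area of a dot gives how many of the 3 libraries had a peak and a cross marks a region with none. The TFAP2B row of Rescue1 has crosses over most of the gene body. GATA3 has a dot in every group at the region 1018 bp before the main start site and at the region over it. The dot over the start site is smaller in KO2 and Rescue2.

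A region counted as gained where every library of the group named first held a peak and no library of the other did, and as lost where the reverse was true. In KO against WT, 1 of the 150 member regions was gained (4.79% of all regions were) and 4 were lost (2.48%). In rescue against KO, 1 was gained (0.910%) and 1 lost (1.24%). Fisher's exact test with adjustment over all 295008 regions passed for none of them, nor for any region of the series (the smallest adjusted p was 0.164 in KO against WT, while in rescue against KO it was 0.101). An unadjusted p under 0.05 was found for 31882 regions of the series and 7 member regions in KO against WT, and for 15605 and 8 in rescue against KO. No member region was called in both comparisons. The gained region lay at an internal PAX8 start site (chr2:113242400-113242591), with 134 to 188 bases under a peak in each of the 6 KO libraries and none in any WT library. It had 105 bases in 1 Rescue1 library and 77 and 83 in 2 Rescue2 libraries. The lost regions were an intergenic region 9957 bp upstream of PAX8 (chr2:113288713-113289043), a PAX2 intron (chr10:100823305-100823454), an intergenic region past HNF4A (chr20:44434309-44434486) and the GATA3 WT-only region given above. The PAX8 region was the widest of the 4, with 331, 281 and 286 bases under a peak in WT and none in any of the other 12 libraries. The HNF4A region had 84, 134 and 78 bases in WT and none in the other 12. The PAX2 region had 112, 81 and 138 bases in WT, none in KO, and 91 to 136 in 1 Rescue1 and 2 Rescue2 libraries. The region gained in rescue against KO lay in an intron of PSD4 inside the PAX8 window (chr2:113200841-113200999), with 99 to 156 bases in each rescue library and 77 in 1 WT library.

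The sequences of these regions are shown, 200 bases around the summit, because they are the all-or-none differences of the 8 loci. Capitals mark a TEAD match in the PAX8 upstream region and one in the PAX2 intron.
PAX8 region gained in KO (chr2:113242416-113242615): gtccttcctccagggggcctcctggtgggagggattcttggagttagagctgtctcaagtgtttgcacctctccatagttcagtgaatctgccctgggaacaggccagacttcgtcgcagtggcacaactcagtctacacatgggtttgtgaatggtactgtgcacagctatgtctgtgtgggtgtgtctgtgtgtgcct
PAX8 upstream region lost in KO (chr2:113288756-113288955): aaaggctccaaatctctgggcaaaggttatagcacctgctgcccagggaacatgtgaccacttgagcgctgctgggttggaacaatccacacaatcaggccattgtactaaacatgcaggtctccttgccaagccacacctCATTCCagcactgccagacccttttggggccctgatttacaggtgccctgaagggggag
PAX2 intron lost in KO (chr10:100823277-100823476): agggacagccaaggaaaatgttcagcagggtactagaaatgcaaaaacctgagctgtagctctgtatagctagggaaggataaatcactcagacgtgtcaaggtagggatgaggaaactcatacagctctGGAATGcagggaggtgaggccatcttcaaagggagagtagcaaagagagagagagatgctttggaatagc
HNF4A downstream region lost in KO (chr20:44434301-44434500): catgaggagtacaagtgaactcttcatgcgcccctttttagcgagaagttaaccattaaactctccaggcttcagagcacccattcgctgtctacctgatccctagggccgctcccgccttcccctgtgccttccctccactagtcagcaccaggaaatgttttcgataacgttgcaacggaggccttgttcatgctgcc
PSD4 intron gained in rescue (chr2:113200818-113201017): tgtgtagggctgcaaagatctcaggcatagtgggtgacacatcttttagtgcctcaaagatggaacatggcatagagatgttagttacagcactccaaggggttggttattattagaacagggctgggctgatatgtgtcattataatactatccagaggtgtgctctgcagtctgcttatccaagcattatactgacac

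Clones of one kind also differed in single regions. In KO1 against KO2, 2 member regions were gained (1.05% of all) and 2 lost (2.55%), all 4 in the EMX2 window. A pair of regions 10166 and 10689 bp downstream of the EMX2 start site had a peak in all KO1, no KO2 and no rescue library, and each had one in 1 WT library. A pair 9123 and 7970 bp upstream had a peak in all KO2 and no KO1 library. The region at 9123 bp also had one in no WT, 2 Rescue1 and no Rescue2 libraries, and that at 7970 bp in 2 WT, 3 Rescue1 and 2 Rescue2 libraries. In Rescue1 against Rescue2, 1 was gained (0.732%) and 7 lost (2.47%). Of the 7, 3 were the TFAP2B regions above, and the rest were in the windows of PAX2, HNF4A, HNF4G and GATA3. The gained region lay in an intron of HNF4A (chr20:44358753-44359145), with 393, 300 and 316 bases in Rescue1 and none in any other library. Another HNF4A region, in LINC01620 (chr20:44442506-44443092), had 343 to 579 bases in WT and KO, 110 to 217 in Rescue2 and none in Rescue1. Single regions were not tested between clones.

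As a second readout, the height of peaks was compared in the 51 member regions with a peak in all 15 libraries. Height was the fold enrichment over local background that MACS2 gives, ranked within each library among the 104967 regions of this kind, with 100 the strongest. Taking for each gene its highest region away from promoters, the mean rank was 79.4 in an HNF4G intron (chr8:75483408-75483631), 70.9 in a PAX8 exon (chr2:113225625-113226595) and 62.1 in a PAX2 intron (chr10:100775351-100775837). It was 45.2 in an HNF4A intron (chr20:44388561-44388999), 38.6 in LHX1-DT (chr17:36920698-36921927), 35.9 downstream of TFAP2B (chr6:50850214-50850800) and 2.87 in EMX2OS (chr10:117539400-117539720), and GATA3 had none. The ratio divides by the signal nearby, and a PAX8-AS1 promoter region (chr2:113212386-113213083) was at a mean rank of 0.18 to 0.35 in every group although it had a peak in every library. For this reason ranks of the -log10 p were tried as well, an alternative chosen after seeing the data.

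In KO against WT, 8 of the 51 regions differed in rank by limma, 2 higher and 6 lower (24.4% of all such regions were called). In rescue against KO, 10 differed, 9 higher and 1 lower (23.6%), and in rescue against WT, 11 differed, 10 higher and 1 lower (28.2%). The median rank difference in rescue against KO was 3.60 for the member regions and -0.48 for all regions. By -log10 p the counts were 8 (2 higher, 6 lower), 14 (9 higher, 5 lower) and 18 (10 higher, 8 lower). Of all such regions, 27.9%, 28.9% and 33.7% were called on that scale. The excess of higher over lower member regions in rescue was smaller than by fold enrichment. The regions described next were named after their values were seen.

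The region over the main GATA3 start site lacked a peak in some libraries and so has no rank. The promoter region 1018 bp before that start site (chr10:8053365-8053974) was lower in rank in KO than in WT and higher in rescue than in KO. Its rank was 69.5, 68.6 and 78.3 in WT, 42.0, 58.3 and 62.0 in KO1, 32.2, 7.88 and 31.9 in KO2, 80.3, 83.6 and 81.8 in Rescue1 and 92.2, 86.8 and 80.4 in Rescue2. KO2 was lowest, KO1 lay between KO2 and WT, and both rescue clones lay above all WT libraries, whereas in bases under peaks across the locus they lay below WT. The difference was -33.1 points in KO against WT (adjusted p = 0.00111), 45.1 in rescue against KO (adjusted p = 2.37e-05) and 12 in rescue against WT (adjusted p = 0.162). KO1 exceeded KO2 by 30.1 points (adjusted p = 0.0324), 1 of 5 member regions called between knockout clones (3.10% of all). By -log10 p the differences were -42.5 in KO against WT and 46.2 in rescue against KO, in the same directions.

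At TFAP2B, the retained promoter region (chr6:50819635-50820053) was higher in rank in rescue. Its rank was 0.42 to 3.30 in WT, 0.11 to 4.45 in KO, 5.19 to 11.8 in Rescue2 and 44 to 46.8 in Rescue1. The difference was 25.9 points in rescue against KO (adjusted p = 2.89e-07) and 36.7 in Rescue1 against Rescue2 (adjusted p = 6.97e-07), the 1 member region called between rescue clones (2.30% of all). The -log10 p of this peak was 18.6 to 20.8 in Rescue1, 9.78 to 14.7 in Rescue2 and 5.48 to 11.5 in WT and KO. The fall in bases under peaks across the window moved with this result, and its part in the ratio was not tested.

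A region 102043 bp downstream of the PAX2 start site (chr10:100847378-100847872) had the largest rank difference among the member regions in rescue against KO. Its rank was 49.9, 31.7 and 50.5 in WT, 4.97, 20.2 and 23.7 in KO1, 32.2, 40.2 and 39.2 in KO2, 77.1, 84.6 and 86.4 in Rescue1 and 95.4, 96.7 and 97.1 in Rescue2. Rescue lay above all other libraries. The difference was 62.8 (adjusted p = 1.11e-06) in rescue against KO and 45.5 (adjusted p = 5.14e-05) in rescue against WT. KO against WT was called at -17.3 (adjusted p = 0.0434), with KO1 called (-27.8, adjusted p = 0.00876) and KO2 not (-6.83, adjusted p = 0.532). By -log10 p the KO against WT difference was not called (adjusted p = 0.0875). The intronic PAX2 region of high rank (chr10:100775351-100775837) was lower in KO than in WT by -22.0 (adjusted p = 0.0215), which came with KO2 at 31.5 to 44.9 and KO1 at 59.7 to 79.5 (KO1 against KO2, 33.5, adjusted p = 0.0236). A region 28240 bp upstream of PAX2 (chr10:100717189-100717494) was higher in both KO (39.9, adjusted p = 0.00422) and rescue (55.4, adjusted p = 0.000341) than in WT. These opposite ends of the window changed in rank while the summed length at PAX2 did not pass the test.

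At HNF4A a region in an exon rose in rank in KO and fell in rescue. The exonic region (chr20:44422188-44422498) was at rank 1.78 to 21.3 in WT, 20.2 to 35.4 in KO1, 42.5 to 80.1 in KO2, 6.08 to 16.6 in Rescue1 and 21.5 to 36.3 in Rescue2, a difference of 32.3 in KO against WT (adjusted p = 0.00359) and -24.5 in rescue against KO (adjusted p = 0.00686). KO2 carried most of it (KO1 against KO2, -33.6, adjusted p = 0.0368). The region at MIR3646 (chr20:44407445-44407725) was higher in rescue than in KO by 34.2 (adjusted p = 0.000352) and lower in KO1 than in KO2 by -29.2 (adjusted p = 0.0474), and the rescue clones were not called against KO2 (21.1, adjusted p = 0.0952, and 18.1, adjusted p = 0.177). In HNF4G, an intronic region (chr8:75442410-75442616) was higher in rescue than in KO by 26.6 (adjusted p = 0.0119), but KO2 was already above KO1 (-40.7 for KO1 against KO2, adjusted p = 0.0345), and the rescue clones differed from KO2 by 9.72 (adjusted p = 0.614) and 2.78 (adjusted p = 0.918). In LHX1, a promoter region (chr17:36936339-36936963) was lower in KO than in WT by -16.2 (adjusted p = 0.00192). Rescue against KO was not called there (5.77, adjusted p = 0.129), and rescue stayed lower than WT (-10.4, adjusted p = 0.026). It was the 1 member region called lower in rescue against WT. In the PAX8 window the lower rank in KO concerned PSD4, whose exonic region (chr2:113202328-113202904) differed by -18.2 in KO against WT (adjusted p = 0.00249) and by 20.6 in rescue against KO (adjusted p = 0.000265). Also called higher in rescue than in KO were 3 regions between the ends of PAX8, a PAX8 promoter region shared with PAX8-AS1 (chr2:113234226-113234486) by 24.5 (adjusted p = 0.0275), and a promoter (chr2:113251113-113251300) and an exonic (chr2:113273032-113273456) region of PAX8-AS1 by 16.9 (adjusted p = 0.000105) and 15.9 (adjusted p = 0.0387). Against KO2, the shared promoter region was called in neither rescue clone (adjusted p = 0.186 and 0.206). The PAX8-AS1 promoter region was called in both (adjusted p = 0.00198 and 0.00652), and the exonic PAX8-AS1 region in Rescue1 (adjusted p = 0.0491) and not Rescue2 (adjusted p = 0.635). By -log10 p the exonic PAX8-AS1 region lost its rescue against KO call (adjusted p = 0.0749), and the other regions kept theirs. The PAX8 start-site region ranked between 10.1 and 23.2 over the 15 libraries and was called in neither comparison.

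**Figure D4:**
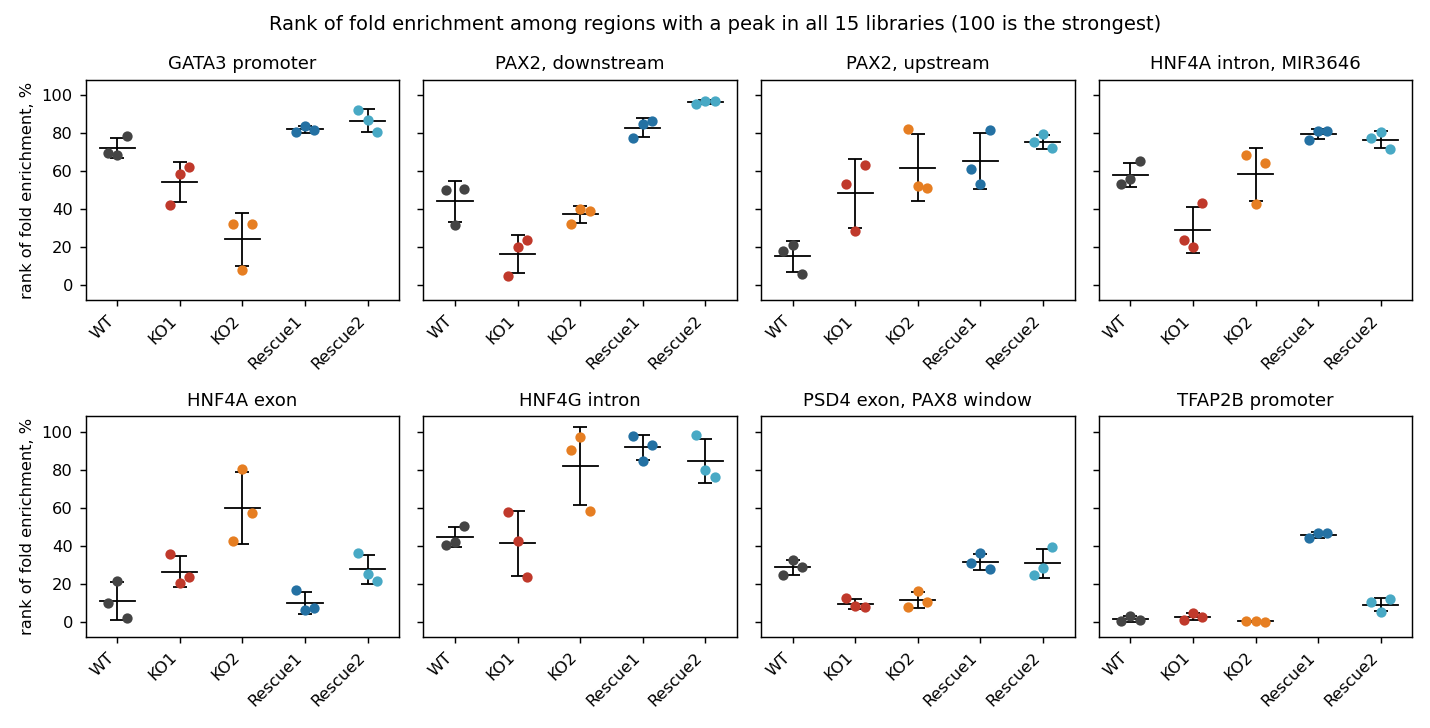
Rank of fold enrichment in percent (y axis, 100 is the strongest of 104967 regions with a peak in every library) for 8 member regions in the 3 libraries of each group (x axis); points are libraries, the line is the group mean and the bar is ± SD. The GATA3 region 1018 bp before the main start site falls to 7.88 to 32.2 in KO2 and is at 80.3 to 92.2 in rescue. The downstream PAX2 region is at 77.1 to 97.1 in rescue.

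Other kidney epithelial transcription factors were taken from a list of 23 genes. In KO against WT, 5 were called higher and 5 lower, against 29.4% of all windows (2929 higher, 2585 lower). In rescue against KO, 2 were called higher and 5 lower, against 38.2% of all windows (5895 higher, 1259 lower). The median log2 differences were 0.00 and 0.05, beside -0.01 and 0.10 over all windows. The 6 with the largest differences past the threshold in either comparison were TBX3, a T-box factor (1.48 in KO against WT, adjusted p = 1.53e-14), IRX2, an Iroquois homeobox factor (-1.10 in KO against WT, adjusted p = 1.34e-09, and -0.50 in rescue against KO, adjusted p = 2.69e-05), its neighbour IRX1 (-0.51 in KO against WT, adjusted p = 0.000532), TBX2 (0.39 in KO against WT, adjusted p = 0.00133), the nuclear receptor ESRRB (0.38 in KO against WT, adjusted p = 0.0222, and 0.32 in rescue against KO, adjusted p = 0.013) and the nuclear receptor NR1H4 (-0.36 in rescue against KO, adjusted p = 1.06e-05). The IRX2 difference in rescue was that of Rescue1 (-1.34 against KO2, adjusted p = 1.50e-09), as Rescue2 was not called against KO2 (0.11, adjusted p = 0.531).

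Motifs were searched on both strands in the 200 bases around the summit of each region. Matches to the TFAP2 motif GCCNNNGGC were found in 23 of the 150 member regions (15.3%), beside 7.73% of all 294980 regions searched. The AP-1 motif TGANTCA was found in 18 member regions (12%), beside 30.3% of all. The TEAD motif GGAATG was found in 14.7% beside 15.8%, the GATA motif AGATAA in 7.33% beside 8.62%, the homeobox motif TAATTA in 2.67% beside 3.59%, the HNF1 motif GTTAATNAT in 2.0% beside 1.3%, the POU motif ATGCAAAT in 1.33% beside 1.39%, the PAX motif GTCACGC in 0.667% beside 0.942% and the HNF4 motif CAAAGTCCA in 0.667% beside 0.270%. No printed window had overlapping matches. These shares are descriptions of letters in windows, and the larger share of member regions near start sites moves with them and its part was not tested.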

How the data were processed

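Per the labels and the study's methods, the authors aligned the ATAC-seq reads to hg38 with BWA (version 0.7.17 in the submitters' processing notes) and called peaks for each library with MACS2 2.2.7.1 at a q-value of 0.05. The deposited lists give each peak's interval, its fold enrichment (a ratio over local background), the −log10 p, the −log10 q and a display score, which was not used. The lists hold no read counts, so the depth is unknown and no interval based on counts is given. The members and lists were chosen with earlier results of these data known. Per library, the bases under peaks were summed in each protein-coding gene (GENCODE 44) with 20 kb flanks, and log2(bases + 300) was fitted over 5 groups with limma 3.58.1 (R 4.3.3), with trend, for the 18744 windows averaging at least 300 bases, with Benjamini-Hochberg adjustment. Peaks sharing at least 1 bp were merged, and regions held by at least 2 libraries were kept. Ranks of fold enrichment were fitted with the same limma model. Exact permutation tests over libraries and Fisher's exact tests (scipy 1.17.1) were two-sided. Regions named were those over main start sites, those called gained or lost, and the highest by rank away from promoters. All other regions were named after their values were seen. The distances given are from the middle of a region to the main start site. Tested on simulated data of 18744 windows with 200 changed, the window fit for KO against WT recovered 98% of changes of log2 1 and 90% of log2 0.5. Sequences were read from the hg38 reference. Alternatives are given in the closing section. The result of 1 marker gene is not reported here.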

Additional observations from a re-analysis of the deposited data

Results flagged for a closer look

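GATA3 differed between the knockout clones. KO1 exceeded KO2 by 1.45 on the log2 scale of bases under peaks plus 300 (limma, adjusted p = 1.93e-08), with 951 to 1361 bases in KO1 and 176 to 287 in KO2. It drew attention because both clones were made with a guide to the same exon and the fall against WT was called in KO2 and not in KO1.

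TFAP2B differed between the rescue clones. The difference of Rescue1 against Rescue2 was -0.933 on the same scale (limma, adjusted p = 2.52e-07), with 1176 to 1292 bases in Rescue1 and 2273 to 2913 in Rescue2. Both clones lay below all WT and KO libraries, and the size of the fall differed between them. With 1 clone of each name, a difference between clones and one between their cultures cannot be told apart.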

How the results depend on the processing

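In KO against WT, 1 locus was called, and the count was 6 with bases per Mb under peaks (adding PAX2, PAX8, LHX1, HNF4A and TFAP2B), 2 with the gene body alone (adding LHX1), 2 with 50 kb flanks (adding EMX2) and 0 by exact permutation, whose smallest possible p over 84 splits was 0.0119 and which called 0 of all windows (6408 at an unadjusted p under 0.05, 0 of them members). In rescue against KO, 3 loci were called, and 1 with peaks of a −log10 q of at least 5 or with lists of equal size. In rescue against WT, 3 became 6 per Mb and 0 by permutation, which again had 84 splits and called 0 of all windows. The permutation adjusted p was 0.0785 for GATA3 and 0.114 for HNF4G and TFAP2B, with 4 members at an unadjusted p under 0.05. Between rescue clones, 1 became 3 per Mb. Signs turned past the threshold for PAX8 per Mb in KO against WT (-0.0852), rescue against WT (-0.121) and Rescue1 against Rescue2 (0.134), for LHX1 per Mb in rescue against WT (-0.134) and by gene body in KO against WT (0.289), and for HNF4A by gene body in rescue against KO (0.228). The causes were not tested.

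Regions gained in KO against WT (1) became 0 with equal lists, 3 when a region counted as occupied from 0.5 of its length under peaks, 2 by majority of libraries, 3 in KO1 alone and 2 in KO2 alone, and those lost (4) became 2 with the stricter threshold. In rescue against KO, gained regions (1) became 0 with equal lists, 4 by majority, 2 against KO1 alone, 2 against KO2 alone, 3 in Rescue1 alone and 4 in Rescue2 alone, and lost regions (1) became 6 by majority, 6 against KO1 alone, 2 against KO2 alone and 6 in Rescue1 alone. Member regions differing in rank in rescue against WT (11, beside 28.2% of all such regions) became 18 by −log10 p (beside 33.7%). That alternative was chosen after seeing the data.

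Leaving out 1 library at a time gave 1 to 1 loci in KO against WT, 2 to 4 in rescue against KO, 3 to 4 in rescue against WT, 1 to 1 between knockout clones and 1 to 3 between rescue clones. It gave 1 to 2 gained and 4 to 7 lost regions in KO against WT, 1 to 3 gained and 1 to 2 lost in rescue against KO, and 7 to 9, 8 to 11 and 7 to 13 regions differing in rank. Without Rescue2 replicate 3, calls were added for LHX1 in rescue against KO (0.132), EMX2 in rescue against WT (0.24), and PAX2 (-0.252) and HNF4G (-0.281) between rescue clones. Over all windows, KO against WT had 3453 higher and 1568 lower without WT replicate 1, and rescue against WT had 2712 and 581 without WT replicate 2 and 2788 and 569 without WT replicate 3. Rescue against KO had 3560 and 1135 with the gene body alone.

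Same-numbered libraries did not deviate together (correlations of -0.172 to 0.0439 over 30 pairs), so the numbers do not pair them. A replicate block changed no call at the loci (1, 3 and 3), and of the ranked regions it left 8, 9 and 11, which is 1 fewer of 10 in rescue against KO. Of the log2 differences of single loci under all alternatives, 899 kept their direction or were called in neither setting, 62 of these with a change of sign, and 22 lost and 17 gained a call. Peak lists without counts limit what depth can show.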
